A study of Mus musculus with 6 samples.

Results

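The S100 genes encode small calcium-binding proteins, and 8 of them (S100a1, S100a4, S100a6, S100a8, S100a9, S100a10, S100a11 and S100a13) were followed by symbol among the 31053 genes counted in single CD45+ cells of glioma-bearing mouse brain. Most S100 proteins pair into dimers, change shape when calcium binds, and then grip a target protein such as an annexin. S100A8 and S100A9 together form calprotectin, which neutrophils store in bulk and release as an alarm signal that Toll-like receptor 4 can sense. S100A4, S100A6, S100A10 and S100A11 act at the membrane and the cytoskeleton of motile cells, and microglia, the resident macrophages of the brain, are otherwise told from recruited myeloid cells by genes such as Tmem119 and P2ry12.

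The cells came from the right, tumor-bearing hemisphere of female SCID mice, a strain that lacks T and B lymphocytes. The mice carried intracranial xenografts of U87, an established human glioma line, that expressed IL-33 (3 mice, 3 weeks after implantation) or held the empty pcDNA 3.1 vector (3 mice, 6 weeks), so that treatment and time cannot be told apart. The labels give the age of the mice as 6 to 8 weeks in one field and as 8 weeks at implantation in another. Each group rests on 1 glioma line in mice without adaptive lymphocytes, and the transgene is carried by the human tumor cells. Percoll separation and sorting for CD45 preceded 10x Chromium 3′ v2 libraries, which count each captured transcript once by its unique molecular identifier (UMI).

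All 6 libraries were deposited as 1 matrix of 40411 barcodes and 105560763 UMIs, in which a suffix from 1 to 6 marks the library. No label ties a suffix to a mouse. Suffixes 1 to 3 have the barcodes, median UMIs and median genes that the authors list for their pcDNA libraries. Those of suffixes 4 to 6 equal the values listed for the IL-33 libraries. The 2 xenograft groups were nonetheless not compared here. The matrix was treated as 1 pooled sample, and no p-value is given. Suffixes held 2879 to 10217 barcodes with a median of 1536 to 3503 UMIs. The libraries were not independent: 14722 barcodes (36.4%) had a sequence that also occurred under another suffix, and 13400 had one found under 3 or more suffixes. Between pairs of suffixes 509 to 3428 sequences were shared, and the 2 copies were alike in their RNA, with a Pearson r of 0.757 to 0.897 for Apoe and 0.736 to 0.852 for Fos over the shared sequences (log2 of UMIs per 10000 plus 1). Shared barcodes were shallow, with a median of 929 UMIs against 3137 for the 25689 unshared ones. Values are therefore also given without shared barcodes, and a range over suffixes is no measure of biological spread.

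Barcodes were grouped by marker genes, none of which is an S100 gene. Of 38751 barcodes that passed the filters, 37281 were microglia-like, 34 granulocyte-like (Ngp, Camp, Ly6g and others), 132 monocyte-like (Ly6c2 without Cd209a), 59 like monocyte-derived dendritic cells (Cd209a without Ly6c2), 144 NK-like and 251 like choroid plexus epithelium. By suffix from 1 to 6, monocyte-like barcodes numbered 3, 15, 2, 52, 16 and 44, and NK-like ones 5, 15, 2, 48, 7 and 67. Microglia-like barcodes numbered 7497, 9857, 2673, 5604, 6256 and 5394. Pooled ratios of monocyte- or NK-like to microglia-like cells therefore mix cell type with xenograft group and week. The microglial markers were at 16569 counts per 1000000 UMIs (CPM) in microglia-like cells and at 687 to 1999 CPM in the granulocyte-, monocyte-, dendritic- and NK-like groups. They reached 5428 CPM in choroid plexus-like barcodes. The CD45 gene Ptprc had a UMI in 46.9% of passing barcodes and the T cell gene Cd3e in 0.0335%. Another 11 barcodes met the border-associated macrophage gate, but their microglial markers (5659 CPM) exceeded the markers of that gate (743 CPM), so they are described by the gate alone. Levels below are CPM, the UMIs of a gene per 1000000 UMIs of the group, with exact Poisson 95% intervals that cover counting error only.

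All 8 genes lie on mouse chromosome 3 and are protein coding (GENCODE vM21, GRCm38, the assembly of mm10). A block of 185 kb holds 6 of them, from S100a1 (chr3:90511034-90514392, minus strand) and S100a13 (chr3:90514435-90524581, plus) through S100a4 (chr3:90603771-90606045, plus), S100a6 (chr3:90612882-90624181, plus) and S100a8 (chr3:90668978-90670035, plus) to S100a9 (chr3:90692632-90695721, minus). S100a11 (chr3:93520488-93526287, plus) and S100a10 (chr3:93555080-93564643, plus) share a second stretch of 44.2 kb. The RefSeq promoter table (GRCm38.p6) had windows, from 250 bases before to 50 after the gene start, for 7 of the 8 genes and none for S100a10. Starts below are those of RefSeq, which lie 93 bases inside the GENCODE gene for S100a8, 62 for S100a1, 12 for S100a6 and 8 for S100a11, 1 base ahead of it for S100a4, and at the same base for S100a9 and S100a13. The stretches up to the RefSeq start (for S100a9 with the first 6 bases after it) are printed for the genes that were highest in granulocytes and monocytes, because they differ in their core promoter letters. Capitals mark TATAAA, the TATA box, or TGANTCA, the motif of AP-1.
S100a8 (chr3:90669011-90669070, plus): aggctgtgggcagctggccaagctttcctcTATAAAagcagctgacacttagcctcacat
S100a9 (chr3:90695716-90695775, minus): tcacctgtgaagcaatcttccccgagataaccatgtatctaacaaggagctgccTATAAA
S100a4 (chr3:90603710-90603769, plus): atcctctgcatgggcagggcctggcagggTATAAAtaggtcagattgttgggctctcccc
S100a6 (chr3:90612834-90612893, plus): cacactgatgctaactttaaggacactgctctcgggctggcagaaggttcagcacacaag
S100a11 (chr3:93520436-93520495, plus): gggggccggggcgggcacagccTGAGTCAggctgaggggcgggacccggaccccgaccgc
between S100a1 and S100a13 (chr3:90514393-90514434, plus): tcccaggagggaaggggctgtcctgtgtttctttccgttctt

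TATAAA began 30 bases before the RefSeq start of S100a8, inside the longer GENCODE model, and 31 bases before that of S100a4, and a TATAAA that starts 40 to 21 bases ahead on the gene's own strand was in 655 of 32851 windows (1.99%). In S100a9 the same letters stood at the RefSeq start itself. The 4 motifs were searched on both strands, none of them contains another, and TGANTCA reads the same on either strand. TATAAA was in 13.6% of all windows, and the windows of S100a1, S100a6, S100a11 and S100a13 lacked it. TGANTCA occurred at 2 places in the S100a11 window and in 7.81% of all windows. TTNNGCAA, a form of the C/EBP motif, was found only in the S100a9 window among the members (10.8% of all windows), and GAGGAA, which PU.1 can bind, in those of S100a4, S100a8 and S100a11 (28.3%). In the GENCODE models S100a1 and S100a13 point away from each other with only the printed 42 bases between them, and neither window held any of the 4 motifs. These matches are descriptions of letters, not of binding.

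**Figure D1:**
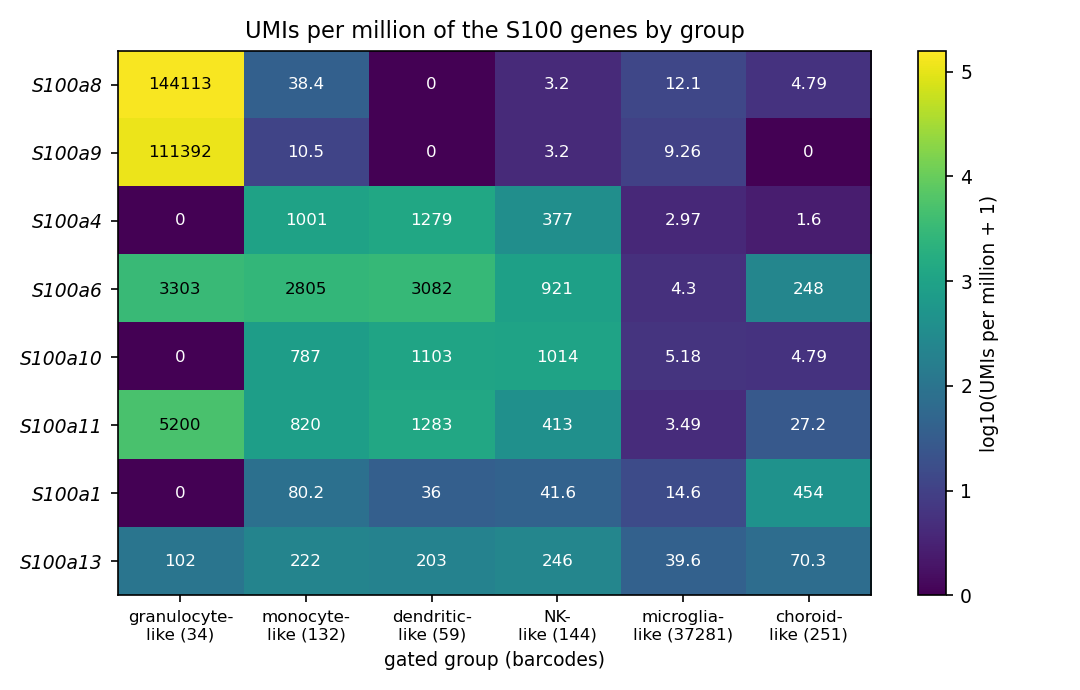
CPM of each S100 gene (rows) in 6 marker-gated groups (columns, with their number of barcodes); color is log10 of the printed value plus 1. S100a8 and S100a9 stand at 144113 and 111392 in granulocyte-like cells and at 38.4 or below elsewhere, while S100a4, S100a6, S100a10 and S100a11 are at 377 to 3082 in monocyte-, dendritic- and NK-like cells and at 5.18 or below in microglia-like cells.

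The calprotectin genes dominated the granulocyte-like cells. S100a8 was the gene with the most UMIs in the group and S100a9 the next, at 8509 and 6577 of 59044 UMIs, or 25.6% of all transcripts counted. By suffix, from 1 to 6, S100a8 was at 111676, 149550, 209478, 113279, 185447 and 111629 CPM. S100a9 was at 103910, 106997, 148519, 88529, 131370 and 99567 CPM over the same suffixes, each with 3 to 11 barcodes. Both genes were therefore of the same order in every library, and both were found in 34 of 34 barcodes (exact Clopper-Pearson 95% interval 89.7 to 100%). In microglia-like cells S100a8 was at 12.1 CPM (11.4 to 12.8) and S100a9 at 9.26 CPM (8.65 to 9.91). The ratio of granulocyte-like to microglia-like cells was 11932 for S100a8 (interval 11206 to 12715) and 12029 for S100a9 (11197 to 12936). Without shared barcodes, 28 granulocyte-like barcodes remained, and the ratios were 11338 and 11147. With the 41 barcodes of the gate that held more microglial RNA included, they were 6300 and 5940.

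S100a8 exceeded S100a9 by 1.29 times in the group's sum (1.25 to 1.34) and by 1.07 to 1.41 times in each suffix. Single cells varied far more: the 2 genes together took from 1.25% to 40.2% of a barcode's UMIs, with a median of 22.1%. They moved together, with a Pearson r of 0.872 over the 34 barcodes (UMIs per 10000, barcodes of 6 libraries, some of them shared). S100a8 outnumbered S100a9 in 23 of the 34.

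**Figure D2:**
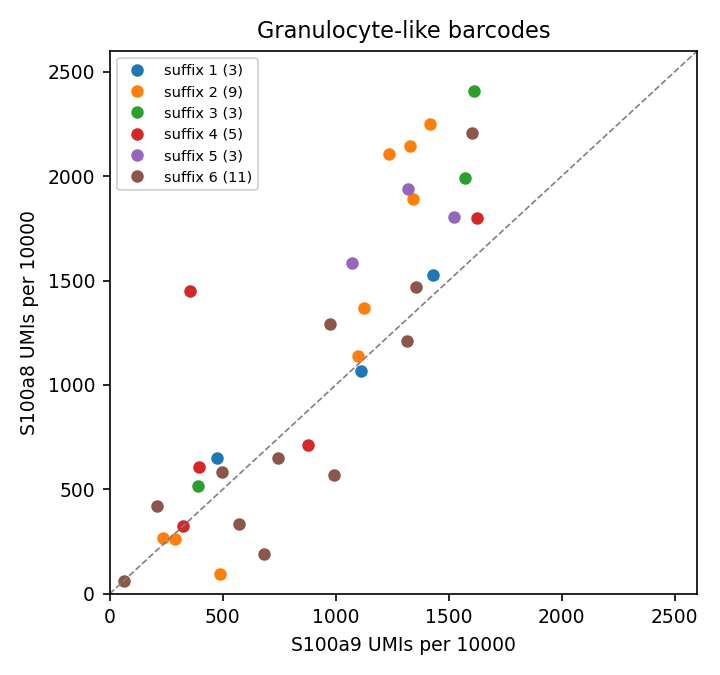
S100a8 against S100a9, in UMIs per 10000 UMIs of the barcode, for the 34 granulocyte-like barcodes, colored by suffix with the number of barcodes; the dashed line marks equal values. Both genes rise together, and 23 of the 34 points lie above the line.

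Elsewhere the calprotectin genes were close to absent. Neither gene had a UMI in the 59 dendritic-like cells, where 3 UMIs would be 9.82 CPM, and each had 1 UMI in 144 NK-like cells. Monocyte-like cells held 22 UMIs of S100a8 (38.4 CPM, 24.0 to 58.1) and 6 of S100a9. Of these, 16 and 6 came from the 15 barcodes of suffix 2, and 1 barcode held 10 of the S100a8 UMIs. The markers of granulocytes were at 103 CPM in monocyte-like cells, of which Mmp8 made 92.4. The part of other cells' RNA was not tested. In microglia-like cells 0.856% of barcodes had an S100a8 UMI and 0.606% an S100a9 UMI. NK-like cells, which are not known for either gene, gave 0.694% for both, at a median depth of 1850 against 2429 UMIs. That share rests on 1 of 144 barcodes (0.0176 to 3.81%), too few to tell whether the microglial shares are background. The microglial UMIs were also unevenly placed: 25 of 37281 barcodes had 5 or more UMIs of either gene, held 800 of 1106 S100a8 UMIs, and in 15 cases also carried a granulocyte marker. The remaining microglia-like barcodes were at 3.35 CPM for S100a8 and 2.30 CPM for S100a9.

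Granulocyte-like cells carried a second pair of S100 genes and lacked others. S100a11, which binds annexin A1, was at 5200 CPM (4634 to 5815) and ranked 15 among 4899 genes detected. By suffix it was at 3348, 6444, 2585, 7139, 8211 and 4865 CPM, all above the 2.26 to 5.52 CPM of microglia-like cells. S100a6, also called calcyclin, was at 3303 CPM (2855 to 3800), with 22 of 34 barcodes positive and suffix values of 670, 4859, 1939, 3570, 2265 and 3599 CPM. S100a1, S100a4 and S100a10 had 0 UMIs, where 3 UMIs would be 50.8 CPM over the group. Against that floor the level in monocyte-like cells was 19.7-fold higher for S100a4, 15.5-fold for S100a10 and 1.58-fold for S100a1 (80.2 CPM there). These folds leave out counting error in monocyte-like cells. For S100a1 the interval there (58.7 to 107) overlapped with that of granulocyte-like cells (0 to 62.5), so no difference is read. S100a13 had 6 UMIs (102 CPM, 37.3 to 221). Counting those at least 2-fold higher than in microglia-like cells, 5 of the 6 S100 genes of at least 10 CPM in either group were higher, against 17% of all such genes. Of these 5, S100a13 had a ratio whose interval included 1 (2.57, 0.942 to 5.60). S100a6, S100a9 and S100a11 were below 10 CPM in microglia-like cells and passed the minimum only through granulocyte-like cells. That all but fixes their call, so the count is no support. S100a4 and S100a10 were below the minimum in both groups and were not counted.

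Monocyte-like cells expressed S100a4, S100a6, S100a10 and S100a11 together. S100a6 was the highest at 2805 CPM (2669 to 2945), followed by S100a4, called metastasin, at 1001 (921 to 1087). S100a11 at 820 (747 to 897) and S100a10 at 787 (716 to 863), the light chain that joins annexin A2, did not differ beyond their intervals. S100a6 was at 1317, 3326, 2309, 2484, 3016 and 3020 CPM in suffixes 1 to 6, and S100a4 at 366, 639, 2398, 939, 879 and 1198 CPM. S100a10 was at 878, 872, 355, 664, 586 and 973 CPM, and S100a11 at 585, 915, 355, 706, 791 and 958 CPM. Only suffixes 4 (52 barcodes) and 6 (44) held 20 or more of these cells, and suffixes 1 and 3 held 3 and 2. Every suffix of all 4 genes was nonetheless above every suffix of microglia-like cells, which ranged from 1.49 to 8.01 CPM. The ratio to microglia-like cells was 652 for S100a6 (583 to 730), 337 for S100a4 (291 to 391), 235 for S100a11 (203 to 271) and 152 for S100a10 (133 to 173). Without shared barcodes it was 584, 295, 221 and 194. The median of the ratios within suffixes 4 and 6 was lower for S100a6 (402), S100a4 (242) and S100a11 (153), and similar for S100a10 (151).

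In single monocyte-like cells, 84 of 132 barcodes (63.6%) had a UMI of all 4 genes and 2 had none. The shares with a UMI were 96.2% for S100a6, 83.3% for S100a4, 84.8% for S100a11 and 77.3% for S100a10. Thinned to 500 UMIs per barcode they were 69.0, 36.0, 31.4 and 29.3%. In microglia-like cells the unthinned shares were 0.864, 0.587, 0.673 and 1.15%, and 96.98% of barcodes had none of the 4. In choroid plexus-like barcodes S100a4 and S100a10 had a UMI in 1 and 3 of 251 (0.398%, 0.0101 to 2.20%, and 1.20%, 0.247 to 3.45%). These intervals are wide and such barcodes also held microglial markers. The microglial UMIs of both genes therefore could not be told from background. Counting all members, 7 of 8 S100 genes were at least 2-fold higher in monocyte-like than in microglia-like cells, against 19.7% of all genes of at least 10 CPM in either group. Only S100a9 was not. S100a4, S100a6, S100a10 and S100a11 passed the minimum only through monocyte-like cells, which all but fixes their call, so the count is no support. For S100a8 the count rests on suffix 2, without which the ratio was 0.951 (0.348 to 2.08), from 6 UMIs in 117 barcodes, and 6 genes were counted.

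**Figure D3:**
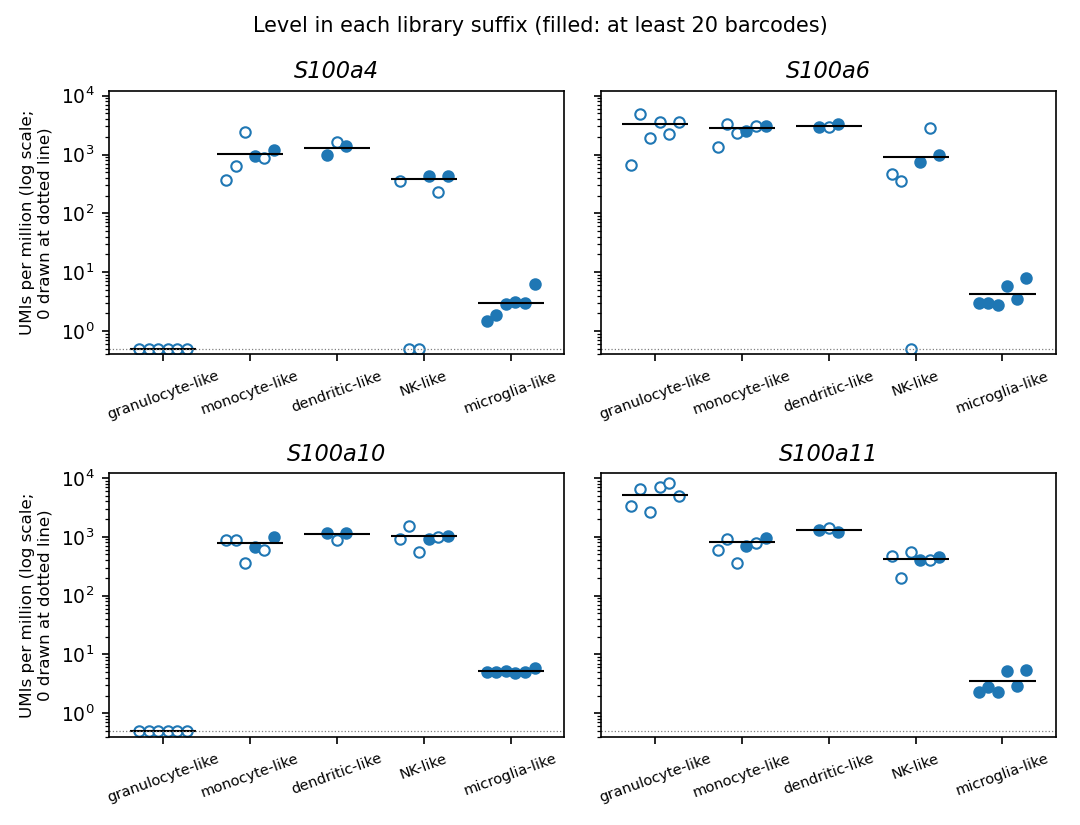
Level of 4 S100 genes (CPM, log axis, 0 drawn at the dotted line) in each library suffix by group; filled points have at least 20 barcodes, open points fewer, and black lines give the group's pooled level. Points of monocyte- and dendritic-like cells lie between 355 and 3326, all above the microglia-like points, which lie between 1.49 and 8.01.

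Dendritic-like cells carried the same 4 genes at somewhat higher levels than monocyte-like cells. S100a6 was at 3082 CPM (2889 to 3286), S100a11 at 1283 (1159 to 1416), S100a4 at 1279 (1156 to 1413) and S100a10 at 1103 (988 to 1227). The ratio to monocyte-like cells was 1.56 for S100a11 (1.36 to 1.79), 1.40 for S100a10 (1.21 to 1.62), 1.28 for S100a4 (1.12 to 1.46) and 1.10 for S100a6 (1.01 to 1.19). None of these cells came from the suffixes that match the pcDNA libraries, so their pooled ratios mix cell type with xenograft group and week. All came from suffixes 4, 5 and 6, with 25, 11 and 23 barcodes. There S100a11 was at 1297, 1409 and 1221 CPM, above all 6 monocyte-like suffixes, whereas S100a6 (2906, 2970 and 3282 CPM), S100a4 (969, 1656 and 1407 CPM) and S100a10 (1154, 876 and 1146 CPM) overlapped with them. All 4 genes were present in 50 of 59 barcodes, at a median of 5355 UMIs against 4325 in monocyte-like cells. Of 7 S100 genes tested 6 were at least 2-fold above microglia-like cells, where the share of all genes was 21%. The same 4 genes passed the minimum of 10 CPM only through dendritic-like cells, so this count is no support either.

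NK-like cells, the lymphocytes of the set, differed from monocyte-like cells in the proportions of the genes. S100a10 at 1014 CPM (905 to 1132) and S100a6 at 921 (818 to 1034) did not differ beyond their intervals, with a ratio of S100a6 to S100a10 of 0.909 (0.772 to 1.07) against 3.57 (3.21 to 3.97) in monocyte-like cells, and S100a11 at 413 (345 to 490) and S100a4 at 377 (312 to 452) were lower. S100a10 exceeded its level in monocyte-like cells by 1.29 times (1.11 to 1.49), while S100a6 was at 0.328 of it (0.289 to 0.373) and S100a4 at 0.377 (0.307 to 0.460). By suffix S100a10 was at 932, 1498, 555, 924, 992 and 1010 CPM, a range that overlaps with monocyte-like cells. S100a6 was at 466, 355, 0, 741, 2800 and 966 CPM, of which the value of suffix 5 rests on 48 UMIs in 7 barcodes, and the highest single NK-like barcode held 45 UMIs. Of 144 barcodes, 22 (15.3%) had all 4 genes, at a median of 1850 UMIs. In total 6 of 7 S100 genes were at least 2-fold higher than in microglia-like cells, against 24.2% of all genes. S100a4, S100a6, S100a10 and S100a11 passed the minimum of 10 CPM only through NK-like cells, so this count is no support. S100a8 had 1 UMI in NK-like cells, and its ratio of 0.265 had an interval that included 1 (0.00670 to 1.48).

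In the monocytic gate the levels of S100a4, S100a6, S100a10 and S100a11 were lower in barcodes that held more microglial RNA. The 388 barcodes of the monocytic gate, before any limit on microglial RNA, were divided by the share of UMIs on Cst3, C1qa, C1qb, C1qc, P2ry12 and Tmem119. At 3% or more, only 9 barcodes had Ly6c2 without Cd209a and 0 had Cd209a without Ly6c2, and the rest had both or neither. The classes therefore differ in these markers and do not follow 1 kind of cell. From under 0.5% to over 6% of UMIs, S100a6 was at 2960, 2856, 1682, 810 and 139 CPM in 177, 99, 45, 41 and 26 barcodes. S100a4 was at 1096, 1109, 593, 316 and 16.3 CPM in the same classes. S100a10 was at 944, 934, 409, 148 and 24.5 CPM and S100a11 at 918, 1027, 690, 239 and 89.8 CPM. The 2 classes below 1% had overlapping intervals for all 4 genes, and each later class was lower than the one before it. S100a8 was at 457 CPM in the highest class, where 56 UMIs lay in 1 barcode. The 237 barcodes of the NK gate gave 1125, 471, 327, 308 and 207 CPM of S100a6, in 117, 10, 17, 43 and 50 barcodes. There S100a10 was at 1077, 1257, 716, 289 and 224 CPM, so it was not lower at every step. Whether such barcodes hold 2 cells, free RNA or cells between both types was not tested.

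**Figure D4:**
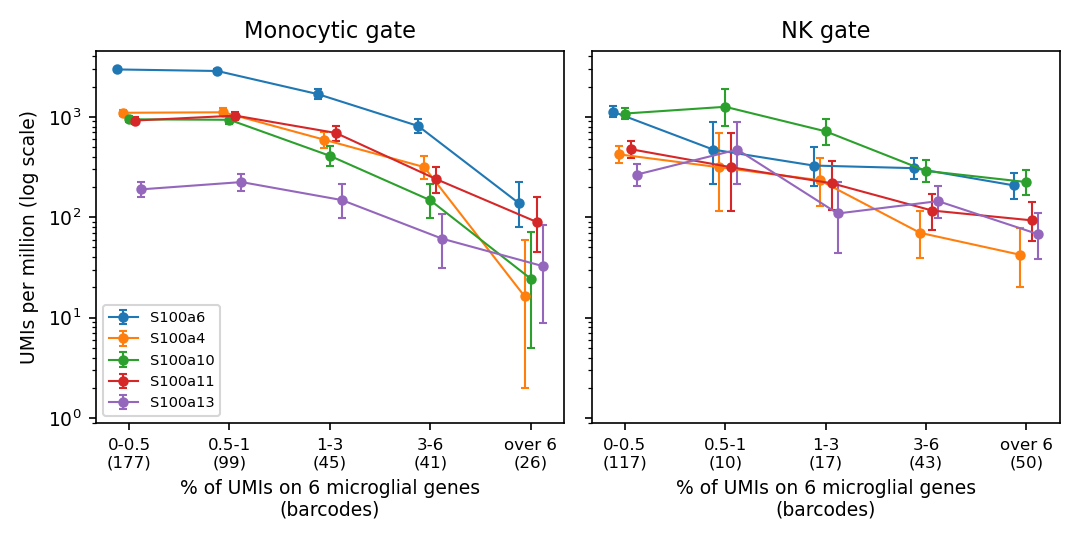
Level of 5 S100 genes (CPM, log axis, exact Poisson 95% intervals) against the share of UMIs on 6 microglial genes, for all barcodes of the monocytic gate (left) and the NK gate (right), with the number of barcodes in each class. In the monocytic gate S100a6 runs from 2960 in the lowest class to 139 in the highest.

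Over all microglia-like barcodes, S100a13 and S100a1, the divergent neighbors, had the highest levels of the 8 genes, though the place of S100a1 above S100a8 was not stable. S100a13, which takes part in the release of Fgf1 without a signal peptide, was the highest member there at 39.6 CPM (38.3 to 40.9), with 35.9 to 44.5 CPM over the 6 suffixes. S100a1, best known from heart muscle and neurons, was at 14.6 CPM (13.8 to 15.4), with 8.79 to 17.7 CPM. Of their UMIs, 84.4% (S100a13) and 89.1% (S100a1) were the only one of their gene in the barcode, against 26.0% for S100a8, and no barcode had 5 or more. S100a10, which could not be told from background above, had a like share of 85.2%, so this spread does not set them apart from it. Without shared barcodes the levels were 41.6 and 13.5 CPM. Even so, S100a13 was higher in recruited cells, at 222 CPM (185 to 264) in monocyte-like, 203 (156 to 260) in dendritic-like and 246 (194 to 308) in NK-like cells, 3 values whose intervals overlap. The ratio of monocyte-like to microglia-like cells was 5.60 (4.65 to 6.69), and 5.36 without shared barcodes. S100a13 reached 0, 145, 266, 218, 293 and 240 CPM in the monocyte-like cells of suffixes 1 to 6, above microglia-like cells in 5 of 6.

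S100a1 was highest in choroid plexus-like barcodes, at 454 CPM (402 to 510) and 421 CPM without shared barcodes. Suffixes 1 to 6 gave 582, 403, 138, 373, 441 and 407 CPM, all above the 8.79 to 17.7 CPM of microglia-like cells. The ratio was 31.2 (27.3 to 35.5), and 116 of 251 barcodes (46.2%) had a UMI. S100a13, which begins 42 bases away, was at 70.3 CPM (51.1 to 94.4) there, so that S100a1 exceeded S100a13 by 6.45 times (4.69 to 9.08), whereas in microglia-like cells S100a13 exceeded S100a1 by 2.72 times (2.55 to 2.90) and in monocyte-like cells by 2.76 times (1.96 to 3.96). S100a6 was the other member at a sizable level in these barcodes, at 248 CPM (210 to 290), while S100a4 had 1 UMI and S100a10 had 3. In monocyte-like cells S100a1 was at 80.2 CPM (58.7 to 107), with suffix values of 0, 145, 444, 37.9, 58.6 and 94.8 CPM. The ratio to microglia-like cells was 5.51 (4.02 to 7.39), and 6.07 without shared barcodes. Among choroid plexus-like barcodes, 3 of 5 S100 genes were at least 2-fold higher than in microglia-like cells, against 17.3% of all genes. Of these, S100a6 and S100a11 passed the minimum of 10 CPM only through choroid plexus-like barcodes. The 11 barcodes of the border-associated macrophage gate had 4 UMIs each of S100a1 and S100a13 and none of the other 6 genes, where 3 UMIs would be 57.2 CPM.

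Within microglia-like cells the differences between states were small beside those between cell types. States were gated on other genes and overlap, and each is set against the remaining microglia-like barcodes. S100a1 and S100a13 had no background comparison, as both were higher in choroid plexus-like barcodes (454 and 70.3 CPM). Their values by state are therefore not read as differences between microglia. S100a1 was higher in the 16242 barcodes with at least 1% of UMIs on Apoe, at 18.7 against 12.3 CPM. The ratio was 1.52 (1.37 to 1.70) with all 6 suffixes in that direction, and 1.44 in the 5365 unshared barcodes, again in 6 of 6. This state had a median of 1250 UMIs, and 10877 of its barcodes were shared. S100a1 was also higher in the MHC class II state, at 24.3 CPM (ratio 1.69, 1.27 to 2.23), and in the Lpl state, at 22.4 CPM (1.57, 1.22 to 1.99). Without shared barcodes these ratios were 1.44 and 1.36. Of the 1163 Lpl barcodes 653 were shared, and 353 of the 593 MHC class II barcodes came from suffix 1. S100a13 was higher in cycling microglia-like barcodes, at 58.4 against 39.3 CPM, a ratio of 1.49 (1.17 to 1.86) that held in 5 of 5 suffixes with 20 or more such barcodes and was 1.42 without shared barcodes. It was lower in the Lpl state, at 30.1 CPM (0.755, 0.611 to 0.922).

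S100a6, at 4.30 CPM and in 0.864% of microglia-like barcodes, lay below S100a10 (5.18 CPM, 1.15%), which could not be told from background. S100a6 had no background comparison of its own, as it was at 248 CPM in choroid plexus-like barcodes. Its values by state are given but not read as differences between microglia. In the 10052 barcodes with under 0.2% of UMIs on Apoe S100a6 was at 5.65 against 3.73 CPM (ratio 1.52, 1.23 to 1.87). That direction held in 6 of 6 suffixes, with a ratio of 1.34 without shared barcodes. Of the 155 S100a6 UMIs there, 25 lay in 3 barcodes. In the Ccl2 state it was lower (0.488, 0.309 to 0.738), in 6 of 6 suffixes. S100a6 was at 9.64 CPM in the interferon state (2.32, 1.48 to 3.48), from 25 UMIs. The microglial UMIs of S100a10 and S100a4 could not be told from background above, so their values by state are likewise not read as differences. S100a10 was at 7.0 CPM in the Apoe low state and 4.4 in the rest (ratio 1.59, 1.32 to 1.92), and the ratio was 2.51 without shared barcodes. In the Apoe high state its ratio was 1.00 with all barcodes and 0.568 without shared ones, and that of S100a4 was 0.478 (0.350 to 0.644) and 0.648. S100a8 was 1.88 times higher in the Apoe high state (1.67 to 2.12), but 462 of its 559 UMIs lay in 10 barcodes. It was at 63.6 CPM in the cycling state and at 27.0 CPM in the Ccl2 state, but 80 of 85 and 255 of 290 UMIs lay in 2 and 6 barcodes.

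**Figure D5:**
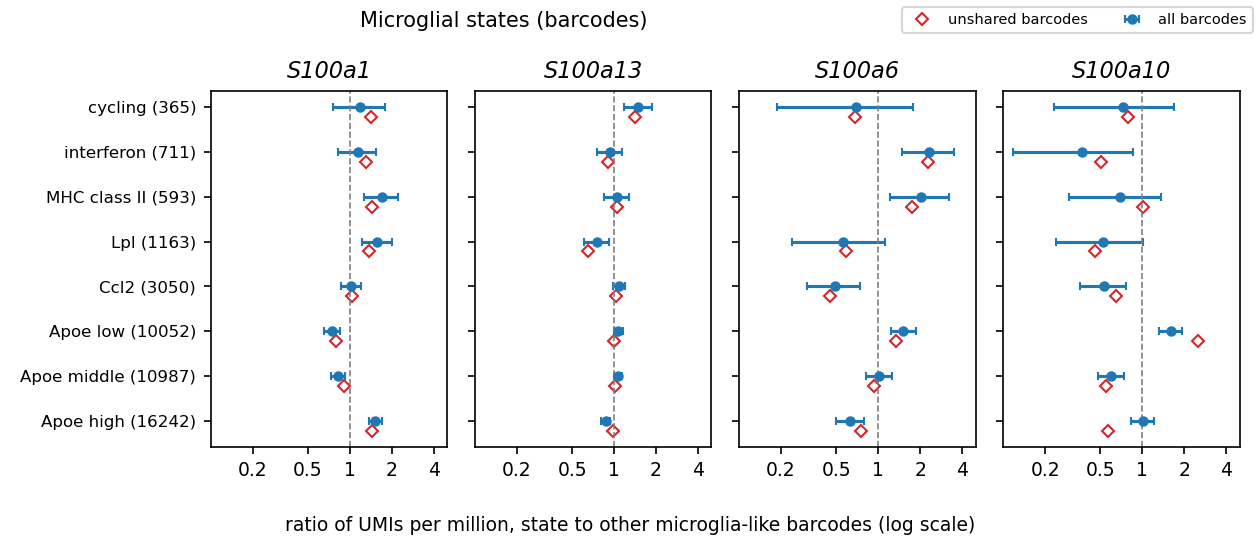
Ratio of CPM (log axis) between each microglial state and the other microglia-like barcodes for 4 S100 genes; filled points with exact 95% intervals for counting error use all barcodes, open diamonds only barcodes whose sequence occurs under 1 suffix. S100a1 lies above 1 in the Apoe high state (1.52) and S100a13 in the cycling state (1.49), though neither gene had a background comparison. S100a6 lies above 1 in the Apoe low state (1.52), but its level in microglia-like cells was below that of S100a10, which could not be told from background.

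Few UMIs of the other family members were found. Over all passing barcodes S100a5, which lies between S100a4 and S100a6, had 2 UMIs, S100a7a 8, S100a14 7 and S100g 1, while S100z had 0. S100a3 had 34 UMIs, and S100a16 had 41, of which 35 were in choroid plexus-like barcodes (55.9 CPM). S100b, the astrocyte gene, had 144 UMIs. S100pbp, which encodes a protein that binds S100P, was at 8.46 CPM in microglia-like cells. Each of the 8 followed genes, which were chosen with earlier results of these data known, had from 1779 (S100a1) to 19046 (S100a8) UMIs.

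Known binding partners partly followed the S100 genes. Anxa2, whose protein forms a complex with S100A10, was at 1146 CPM in monocyte-like, 1315 in dendritic-like, 822 in NK-like and 2.46 in microglia-like cells. It was also at 1033 CPM (790 to 1327) in granulocyte-like cells, in which S100a10 had 0 UMIs. Ahnak, a large scaffold bound by the same complex, was at 372, 409, 246 and 0.349 CPM in monocyte-, dendritic-, NK- and microglia-like cells and had 0 UMIs in granulocyte-like cells. Anxa1, the partner of S100A11, was at 5047 CPM (4490 to 5654) in granulocyte-like cells and at 413, 376 and 281 CPM in monocyte-, dendritic- and NK-like cells, against 0.502 in microglia-like cells. Anxa5 and Anxa6 were at 478 and 126 CPM in monocyte-like cells and at 32.5 and 26.4 in microglia-like cells. Anxa11 was highest in granulocyte-like cells at 186 CPM, against 36.6 in monocyte-like and 8.34 in microglia-like cells. Myh9, the non-muscle myosin that S100A4 binds, was at 62.8 CPM in monocyte-like and 41.5 in microglia-like cells and Capn1, which encodes a calcium-dependent protease, at 26.2 and 9.40. Cacybp, the calcyclin-binding protein, was at 78.3 CPM in microglia-like and 140 in monocyte-like cells. Fgf1, the cargo of S100A13, had 23 UMIs in microglia-like cells (0.251 CPM). It had none in the recruited groups, where 3 UMIs would be 5.23 to 50.8 CPM, so a level like that of microglia-like cells would not be seen there.

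Receptors for calprotectin were measured in the same groups, but with 0 UMIs in granulocyte-like cells Tlr4, Ager and Cd36 were limited there only to 50.8 CPM, which lies above their levels elsewhere. Tlr4 was at 25.5 CPM (24.5 to 26.6) in microglia-like cells, at 12.2 (4.91 to 25.2) in monocyte-like cells. Bsg, which encodes the S100A9 receptor basigin, was at 579 CPM in microglia-like and 242 in monocyte-like cells and had 1 UMI in granulocyte-like cells (16.9 CPM, 0.429 to 94.4), and Ager had 44 UMIs in microglia-like cells and none in the other groups. Cd36 was at 17.4 CPM in monocyte-like and 1.00 in microglia-like cells. Among transcription factors of myeloid cells, Cebpb was at 2791 CPM (2656 to 2931) in monocyte-like and 1778 (1454 to 2153) in granulocyte-like cells, against 609 in microglia-like and 409 in dendritic-like cells. Cebpa and Klf4 were higher in microglia-like cells (380 and 280 CPM) than in monocyte-like cells (127 CPM each), and neither had a UMI in granulocyte-like cells. Cebpd was at 576 CPM in granulocyte-like and 133 in microglia-like cells. Cebpe, a factor of late granulocyte development, had 7 UMIs in granulocyte-like cells (119 CPM) and was at 0.0437 CPM in microglia-like cells, while Spi1 was at 413 to 628 CPM in all the myeloid groups.

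The genes most like each member were sought over the 7 gated groups, the border-associated macrophage gate included, by Pearson r of log2(CPM + 10) among genes of at least 50 CPM in 1 or more groups. For S100a8 these were B230208H11Rik, Crispld2 and Wfdc21 (r of 0.997 to 0.999), and for S100a9 AC110211.1, Padi4 and Lcn2 (0.998 each). Lcn2 is itself a marker of the granulocyte gate. All these genes were at 15.7 CPM or below outside the granulocyte-like group. They passed the 50 CPM minimum through that group alone, so an r near 1 follows from how they were chosen. S100a4 and S100a10 shared 2 of their 3, Itgb7 and Ahnak (0.991 to 0.994), besides Tmem258 and Tmsb10. The genes nearest to S100a6 were Pqlc3, D8Ertd738e and Scand1 (0.966 to 0.986), those nearest to S100a11 Rgs18, Glipr2 and Cdkn2d (0.979 to 0.983). For S100a1 they were Dynlt3, Ndufa5 and Uqcr11 (0.958 to 0.974), all highest in choroid plexus-like barcodes, and for S100a13 they included Sept9 and Prelid1 (0.967 and 0.954). With 7 points that share libraries, these values are descriptions.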

How the data were processed

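The authors aligned reads to mm10 with Cell Ranger 3.1.0 and joined 6 libraries by aggregation. They deposited raw counts of UMIs per gene and barcode, in whole numbers, and named Seurat 3.1.5 for later steps. Median UMIs per suffix equal those that the authors list for each library, so aggregation left depth unequal. No column was left out (0). A barcode passed if its mitochondrial counts stayed under 5% and its number of genes lay above 200 without exceeding 2500 (the smallest had 500 UMIs). A gate asked for at least 2 markers and 3 UMIs of its list, and recruited cells for under 3% of UMIs on 6 microglial genes. Barcodes of the granulocyte (41), NK (93) and monocyte (9) gates above that limit, 188 monocytic barcodes with both or neither of Ly6c2 and Cd209a, and 508 ungated barcodes stayed outside the groups. States followed Apoe (0.2 and 1% of UMIs), Ccl2 with Ccl12 (1%), and 2 or 3 genes of the cycling, interferon, MHC class II and Lpl lists. No doublet caller was run; mixed barcodes were set aside by markers. A 3′ UMI counts a transcript once, so levels were not divided by length. Ratios have exact conditional intervals (95%), and a count of 0 allows up to 3 counts. Intervals cover counting error only. No p-values were computed, since all barcodes were treated as 1 pooled sample. Named genes were the members, fixed lists of S100, partner and regulator genes, and the 3 most similar per member, of which 1 is not reported here. Alternatives changed the markers required, the gene, mitochondrial, UMI and microglial RNA limits, the 10 CPM minimum (50) and the suffixes. Members and lists were chosen with earlier results of these data known. Leaving out shared barcodes, and leaving out suffixes for S100a8 in monocyte-like cells and for the counts of members, were alternatives chosen after seeing the data. Python 3.11.15, numpy 2.4.6, scipy 1.17.1, pandas 2.3.3 and matplotlib 3.10.9 were used, and calculations were tested on simulated data.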

Additional observations from a re-analysis of the deposited data

Results flagged for a closer look

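Calprotectin transcripts were also found in barcodes outside every group. The 508 ungated barcodes held S100a8 at 1362 CPM and S100a9 at 1534 CPM, against 6.01 CPM for 3 counts, and 23 and 21 of these barcodes had 5 or more UMIs of the gene. The 1660 barcodes that failed a filter held S100a8 at 614 CPM and S100a9 at 423 CPM, against 0.299 CPM for 3 counts, with 29 and 28 such barcodes. Of passing barcodes with at least 5% of their UMIs on both genes together, 33 were granulocyte-like, 19 had granulocyte markers with microglial RNA above the limit, and 14 were ungated, so the 34 granulocyte-like barcodes are not all barcodes rich in these transcripts.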

How the results depend on the processing

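All 110 ratios of the 8 leading comparisons computed under alternatives stayed above 1, and the counts of S100 genes at least 2-fold higher stayed within 1.5 times of those reported. The ratios of granulocyte-like to microglia-like cells were 10852 (S100a8) and 9741 (S100a9) with at least 3 markers, 10957 and 10728 with a mitochondrial limit of 10%, and 6300 and 5940 with no microglial RNA limit. S100a9 was at 10068 with no upper limit on genes and S100a8 at 12917 with at least 1000 UMIs. The ratio of monocyte-like to microglia-like cells was 549 for S100a6 with at least 3 markers, and 258 for S100a4 and 450 for S100a6 with no upper limit on genes. As the median within suffixes 4 and 6 it was 242 for S100a4, 402 for S100a6 and 153 for S100a11; no suffix had 20 granulocyte-like barcodes, so none is given there. Without shared barcodes, chosen after seeing the data, S100a9 was at 11147 and S100a10 at 194. The cause of these shifts was not tested. Leaving out 1 suffix at a time gave 10151 to 15992 for S100a8, 9991 to 16708 for S100a9, 577 to 750 for S100a6 and 216 to 279 for S100a11. It also gave 0.951 (without suffix 2) to 6.03 for S100a8 in monocyte-like over microglia-like cells and 6 to 8 for the count of S100 genes higher in monocyte-like cells, both chosen after seeing the data. No paired analysis was possible because the suffixes carry no replicate number of the labels and no test was made. With 34 granulocyte-like barcodes, a gene at 0 is limited only to 50.8 CPM.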

Other observations

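The S100 genes were also counted in barcodes that met a gate but stayed outside the groups. The 41 barcodes of the granulocyte gate with at least 3% of UMIs on microglial genes had S100a8 at 51993 CPM, S100a9 at 35026 CPM, S100a11 at 1332 CPM and S100a6 at 1038 CPM. The 93 such barcodes of the NK gate had S100a6 and S100a10 at 255 CPM each and S100a4 at 55.4 CPM. The 188 monocytic barcodes with both (60) or neither (128) of Ly6c2 and Cd209a had S100a6 at 1890 CPM, S100a4 at 694 CPM and S100a8 at 2.36 CPM (0.286 to 8.54). Monocyte-like cells had S100a8 at 38.4 CPM, or 11.9 without suffix 2. Microglia-like cells had it at 12.1 CPM, or 3.35 without the 25 barcodes with 5 or more UMIs of S100a8 or S100a9. In the 9 barcodes of the monocyte gate with at least 3% of UMIs on microglial genes S100a8 was at 1166 CPM, all from 1 barcode with 56 UMIs.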
